A study of Mus musculus with 4 samples.

Results

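Myelin is the membrane that oligodendrocytes wrap around axons, and its proteins are made in quantity only once a precursor has stopped dividing and begun to differentiate. Precursors carry Pdgfra, cells on the way to differentiation carry Gpr17, and mature cells carry the full set of myelin proteins. The 9 genes described here encode such proteins. Mbp and Mobp encode basic proteins that hold the inner faces of compact myelin together, and their mRNA is carried out into the processes of the cell. Mag is an adhesion protein of the layer next to the axon and Mog one of the outermost surface, Cldn11 forms the tight junctions between layers, Cnp is a phosphodiesterase of the uncompacted cytoplasm, and Mal and Opalin are membrane proteins. Ermn encodes ermin, which binds actin late in differentiation. The list was given by name, and these are 9 of the 31055 genes in the count tables.

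Hippocampal cells of Dp(10)2Yey mice and of wild-type (WT) littermates were profiled by droplet single-cell RNA sequencing. Dp(10)2Yey mice carry an extra copy of a segment of mouse chromosome 10, from Prmt2 to Pdxk, and model part of Down syndrome. There were 2 male mice of each genotype, aged 3 months, on a C57BL/6J background, with 1 library per mouse. The libraries are called WT 1, WT 2, Dp(10)2Yey 1 and Dp(10)2Yey 2, and values are given in that order. They held 1039, 1708, 1372 and 2345 cell barcodes with 3002546, 6848466, 5112759 and 9612011 UMIs, and their median barcode had 2049, 3669.5, 3386.5 and 3696 UMIs. The depth of WT 1 was thus the lowest by each of these measures. Over all pairs of libraries 8 barcodes were shared. The comparisons ask how each gene's level follows the lineage, whether it differs between genotypes, and where its UMIs lie outside the lineage.

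None of the 9 genes lies in the duplicated segment (chr10:76207222-78464975). They sit on 8 chromosomes of GRCm38. Mbp (ENSMUSG00000041607) spans chr18:82475146-82585637 and Mobp (ENSMUSG00000032517) spans chr9:120149707-120181484. The adhesion and junction genes Mag (ENSMUSG00000036634), Mog (ENSMUSG00000076439) and Cldn11 (ENSMUSG00000037625) span chr7:30899176-30914873, chr17:37010743-37023398 and chr3:31149920-31164324. Cnp (ENSMUSG00000006782) spans chr11:100574904-100591729. Mal (ENSMUSG00000027375) and Ermn (ENSMUSG00000026830) share a chromosome, at chr2:127633226-127656695 and chr2:58045113-58052864, and Opalin (ENSMUSG00000050121) spans chr19:41061710-41077113. Exons of Cnp overlap exons of Dnajc7 on the opposite strand, those of Ermn overlap Galnt5 on the opposite strand, and those of Mobp overlap Gm38642 on the same strand.

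Of the 6264 cells kept, 1430 fell in the oligodendrocyte lineage, which was clustered without the 9 genes. A precursor cluster of 462 cells and an oligodendrocyte cluster of 968 cells were divided by Gpr17. Cells of either cluster with at least 2 Gpr17 UMIs were taken as Gpr17-positive, the rest of the precursor cluster as precursors and the rest of the oligodendrocyte cluster as mature. This gave 41, 80, 68 and 91 precursors, 29, 52, 46 and 61 Gpr17-positive cells, and 127, 309, 221 and 305 mature cells. Pdgfra stood at 1221 to 1433 UMIs per 1e+06 UMIs of the class (CPM) in precursors, 879 to 1069 CPM in Gpr17-positive cells and 0 to 3.66 CPM in mature cells. In the oligodendrocyte cluster 20 of 20 oligodendrocyte markers outside the list were at least 2-fold higher than in the other cells. Of the 188 Gpr17-positive cells, 139 had a Pdgfra UMI. Just below the threshold, 107 cells of the precursor cluster had exactly 1 Gpr17 UMI, and just above it 59 had exactly 2.

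Mature oligodendrocytes expressed all 9 genes, and 85.4% of these cells (822 of 962) had at least 1 UMI of each. Together the genes stood at 28807, 28356, 27782.5 and 27246 CPM. Mal was at 7507, 7374, 6306 and 6774 CPM, Mbp at 4501, 4214, 4676 and 4173 CPM, and Mog at 1109, 1594, 1351 and 1566 CPM. The 4 libraries lay close together for every gene, with WT 1 lowest for Mog. UMIs were counted at the 3′ end of each mRNA, so the values were not divided by gene length. By mean ± SD over 4 libraries, Mal led at 6990.2 ± 556 CPM. Mbp (4391 ± 239.5 CPM) and Cnp (4128 ± 125 CPM) followed.

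Mag (2556 ± 122 CPM), Cldn11 (2549.7 ± 211.5 CPM), Mobp (2292.5 ± 184 CPM) and Ermn (2153 ± 103 CPM) formed a middle group in mature cells, with Opalin (1582 ± 92.5 CPM) and Mog (1405 ± 225 CPM) lowest. Opalin and Mog differed by less than the spread between libraries, as did Mag and Cldn11 and also Mobp and Ermn. A median mature cell had 132 UMIs of the 9 genes, which was 2.67% of its UMIs. At a finer clustering resolution, 120 cells of the oligodendrocyte type, with a median of 1188.5 UMIs and 16.7% mitochondrial UMIs, formed a cluster apart from the main cluster of 847. These clusters were not divided by Gpr17, so together they take in Gpr17-positive cells of the oligodendrocyte cluster. Against the main cluster, these small profiles were lower in Ermn (log2 ratio −1.37 ± 0.29, SD over 4 libraries), Cnp (−1.19 ± 0.43), Mobp (−0.79 ± 0.13) and Mbp (−0.58 ± 0.15) in each library, while Mog was slightly higher in each (0.14 ± 0.03).

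**Figure D1:**
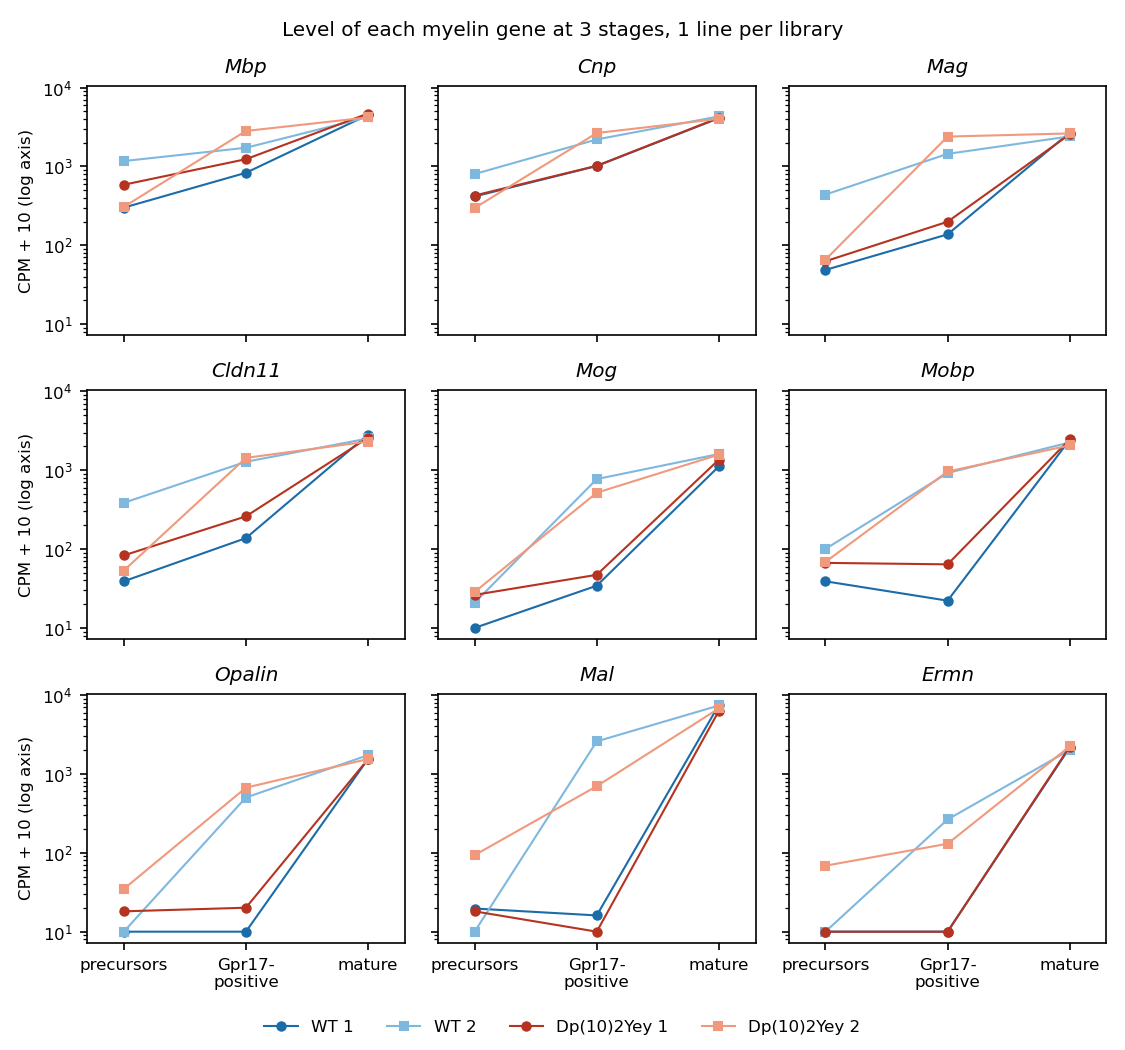
Level of each gene in precursors, Gpr17-positive cells and mature oligodendrocytes, in CPM + 10 on a log axis, with 1 line per library. All 4 libraries meet in mature cells, and WT 2 and Dp(10)2Yey 2 lie above the other 2 in Gpr17-positive cells for each gene.

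In precursors Cnp and Mbp were already present and the late genes were close to absent. Cnp was at 406, 791, 418 and 287 CPM and Mbp at 290.1, 1159, 576 and 296 CPM. Mag was at 38.7, 429.8, 52.7 and 55.6 CPM and Cldn11 at 29.0, 375.6, 73.0 and 43.2 CPM. WT 2 stood above the other libraries for each of these 4 genes. Mal, Opalin, Ermn and Mog were between 0 and 83.4 CPM in every library. As a percentage of the mature level, with the libraries pooled, precursors reached 14.3% for Mbp, 11.6% for Cnp, 6.40% for Mag, 5.87% for Cldn11 and 2.85% for Mobp. The other 4 genes stayed under 1%.

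A few cells carried much of this precursor signal. In WT 2, 2 cells with 330 and 262 UMIs of the 9 genes held 41.7% and 33.1% of the 791 such UMIs in the precursors of that library. Neither cell had a Pdgfra UMI, they had 0 and 1 Gpr17 UMIs, and the finer clustering placed them with differentiating cells. In Dp(10)2Yey 2, 1 called doublet with 101 UMIs held 33.7% of 300. The median precursor had 1 UMI of the 9 genes, and 33.9% of precursors had none.

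A UMI in a precursor can also come from free RNA, for which barcodes of red blood cells give a measure. Cnp was seen in 39.0%, 58.75%, 48.5% and 46.2% of precursors and in 0%, 4.55%, 0% and 2.19% of red blood cell barcodes, where 0 of 13 in WT 1 and 0 of 18 in Dp(10)2Yey 1 allow up to 24.7% and 18.5% (exact 95% Clopper-Pearson limits). Median depths were 1203, 3637.5, 4081.5 and 3995 UMIs in precursors and 1893, 2614, 3571 and 4477 UMIs in red blood cell barcodes. The Cnp share in precursors was above that of red blood cell barcodes in every library. At 1000 UMIs per barcode, here and in later paragraphs, barcodes below that depth were left out. This left 25, 62, 58 and 68 precursors and 10, 19, 18 and 126 red blood cell barcodes. The Cnp shares were then 23.3%, 24.4%, 21.2% and 15% in precursors and 0%, 2.71%, 0% and 0.771% in red blood cell barcodes. Mbp was less clear: at 1000 UMIs per barcode it was seen in 14.6%, 10.6%, 24.2% and 9.49% of precursors and in 0%, 14.5%, 4.15% and 6.98% of red blood cell barcodes. In WT 2 the Mbp share in precursors was thus not above that of red blood cell barcodes at this depth, while at 500 UMIs it was (14.6% against 10.9%). At 500 UMIs 80 precursors and 22 red blood cell barcodes of WT 2 entered, so the cells changed along with the depth.

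In Gpr17-positive cells the libraries fell into 2 pairs. Cnp was at 1002, 2189, 1009 and 2641 CPM and Mbp at 820, 1714, 1225 and 2807 CPM. Mag was at 128, 1433, 189 and 2380.1 CPM, and Mal at 6.08, 2579, 0 and 690 CPM. WT 2 and Dp(10)2Yey 2 were higher than WT 1 and Dp(10)2Yey 1 for all 9 genes, so that the split crossed the genotypes. Just 6 Gpr17-positive cells came from the oligodendrocyte cluster, 3 in WT 2 and 3 in Dp(10)2Yey 2. They held 3259 of the 3960 UMIs of the 9 genes (82.3%) in the Gpr17-positive cells of WT 2 and 3318 of 5369 (61.8%) in those of Dp(10)2Yey 2. For Mal they held 880 of 880 and 293 of 304 UMIs. None of the 6 was called a doublet, and their profiles were large, with a median of 19794 UMIs in WT 2 and 23573 UMIs in Dp(10)2Yey 2.

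Within the precursor cluster, Gpr17-positive cells without Pdgfra were higher than those with it in Mbp, Cnp, Mag, Cldn11 and Mog in each library, but in Mal and Ermn in no library. The 139 Gpr17-positive cells with a Pdgfra UMI, all of the precursor cluster, were lower than precursors as defined here, which take in 36 differentiating cells described below, in Mbp, Cnp, Mag, Cldn11 and Mobp in each library. They reached 4.52% of the mature level for Cnp, 2.47% for Mbp, 0.611% for Mobp and 0.435% for Mag with the libraries pooled, and had 0 Opalin UMIs. The 43 cells of the precursor cluster without a Pdgfra UMI (3, 13, 11 and 16 per library) reached 82.0% for Mbp, 76.3% for Cnp, 46.0% for Mag and 44.2% for Cldn11. Mog (9.94%), Mobp (9.59%) and Opalin (4.51%) had just begun, and Ermn (0.120%) and Mal (0.0741%) were still near 0. Depth differed too, with medians of 4530.0, 5267, 5555 and 5022.5 UMIs with Pdgfra and 12043, 7576, 9308 and 9126.5 UMIs without it.

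In each library of these 43 cells, Mbp and Cnp stood above the other genes. Mbp was at 79.0%, 53.4%, 68.8% and 114% of its mature level and Cnp at 92.6%, 64.1%, 62.0% and 93.4%. Mag was at 21.1%, 14.6%, 20.3% and 91.0%, and Cldn11 at 21.1%, 20.5%, 26.6% and 84.8%. Dp(10)2Yey 2 was highest in all 4 of these genes and set the pooled value of Mag and Cldn11. Mog was at 10.2%, 14.6%, 7.63% and 7.98%, so that it was level with Mag in WT 2. Mobp was at 0%, 0%, 5.73% and 23.3%, while Mal was at 0% in 3 libraries and 0.205% in Dp(10)2Yey 2. Of the genes for basic proteins of compact myelin, Mbp was thus high together with Cnp, and Mobp was low. The pooled order was Mbp, Cnp, Mag, Cldn11, Mog, Mobp, Opalin, Ermn and Mal. Mbp and Cnp did not differ beyond the spread between libraries (the larger SD), nor did Mag and Cldn11, Cldn11 and Mog, Mog and Mobp, Mobp and Opalin, or Ermn and Mal. Within each library, however, Cldn11 was above Mog.

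**Figure D2:**
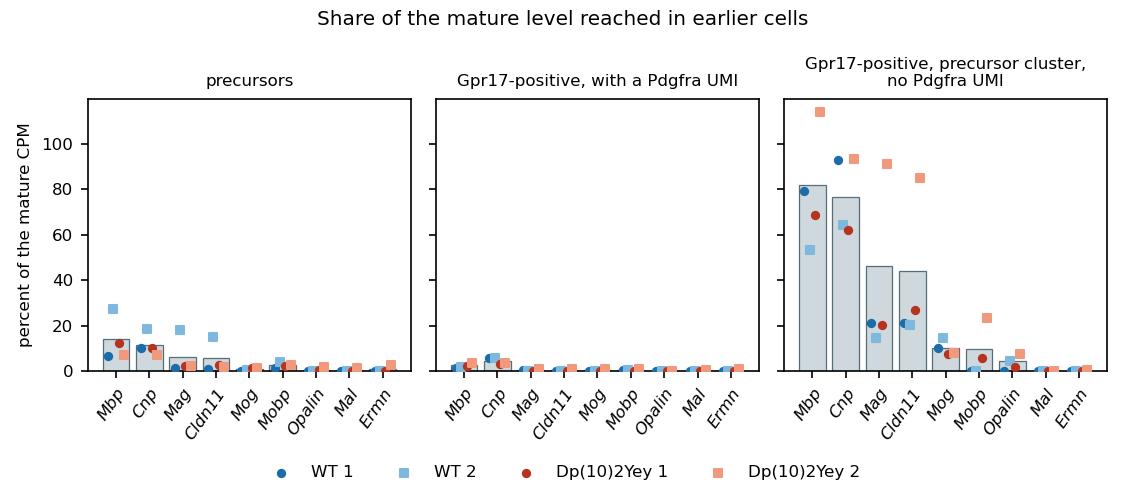
Level of each gene as a percentage of its mature CPM in precursors, in Gpr17-positive cells with a Pdgfra UMI, and in Gpr17-positive cells of the precursor cluster without one. Bars pool the libraries and points are single libraries, and in the last panel Mbp (82.0%) and Cnp (76.3%) stand highest and Ermn and Mal near 0.

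Finer clustering, which did not use Gpr17 counts as a threshold, drew out 77 differentiating cells (8, 26, 17 and 26) with a like order of genes. Pooled, they reached 96.3% of the mature level for Mbp, 84.1% for Cnp, 53.2% for Mag, 51.2% for Cldn11, 11.6% for Mobp, 9.92% for Mog, 4.15% for Opalin, 0.213% for Ermn and 0.132% for Mal. Dp(10)2Yey 2 set several of these values. By library, Mag was at 20.97%, 46.4%, 23.3% and 92.9%, Cldn11 at 19.9%, 45.0%, 30.5% and 88.0%, and Mobp at 0%, 6.79%, 6.04% and 26.0%, so that Mobp was below Mog (8.43%, 12.3%, 9.03% and 8.53%) in 3 of 4 libraries. Of these cells 41 were Gpr17-positive and 36 had fewer than 2 Gpr17 UMIs and so were counted as precursors. Gpr17 stood at 1637, 1392, 1777 and 794 CPM in this cluster, and Enpp6, a gene of newly formed oligodendrocytes, at 1473, 1015, 1141 and 1012 CPM. Without those 36 cells, the other 244 precursors reached 3.67% of the mature level for Mbp, 4.48% for Cnp, 0.709% for Mag, 0.406% for Cldn11 and 1.55% for Mobp. Against these 244 cells, the Gpr17-positive cells of the finer precursor cluster were lower in each library in Mobp only (mean log2 ratio −0.91 ± 0.76, SD over 4 libraries). This Mobp ratio rests on just 10 UMIs in the Gpr17-positive cells and 31 in the 244 cells, with the libraries summed. Mbp (−0.37 ± 0.71), Cnp (0.07 ± 0.41), Mag (0.15 ± 0.68) and Cldn11 (−0.11 ± 0.26) were not lower in each library.

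From precursors to mature cells the median gene of the 9 was higher by a log2 ratio of 6.18, 4.49, 5.35 and 5.32, with 10 CPM added to each level. The mean was 5.33 ± 0.69 (SD, n = 4 libraries). Cnp (3.19 ± 0.55) and Mbp (3.13 ± 0.94) had the smallest ratios, and Mal (8.18 ± 1.42), Ermn (7.06 ± 1.36) and Opalin (6.65 ± 0.90) the largest. The part of this reached by Gpr17-positive cells varied by library. The median ratio of Gpr17-positive cells to precursors was 1.28, 3.20, 0.85 and 3.81, and that of mature to Gpr17-positive cells was 5.03, 1.29, 4.85 and 1.10. WT 2 and Dp(10)2Yey 2 again stood apart from the other 2 libraries. These stage differences are descriptive, and no test was run on them.

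Promoters of 8 of the 9 genes (all but Mbp) were found among RefSeq promoters on GRCm38.p6 and read, on both strands, for short motifs bound by regulators of the lineage. The windows were the 250 bases before each start, and bases that an annotated exon covers are left out of what is printed. Windows of Mag, Cnp and Mobp, which held the most matches, are shown. CTGGCAC, a motif like that bound by the myelin regulator Myrf, occurred at 1 site of Mag, which 2 of its 3 windows share, and at 1 site of Cnp, but in none of the windows of the other 6 genes, and in 4.19% of 32851 promoters of the genome. ACAAAG, bound by Sox proteins, occurred in those of Mag, Mobp, Cnp and Opalin, and in 16.5% of all promoters. The Mobp window held 6 of these ACAAAG matches. ACAATG, also bound by Sox proteins, occurred in that of Ermn (10.7% of all promoters). CAGCTG and CATATG, which Olig proteins bind, occurred in none of the windows (13.001% and 3.46% of all promoters). The matches describe letters in these windows and not binding. In the sequences, capitals mark matches to either motif on either strand, so that ACAAAG on the reverse strand reads CTTTGT. The Mag window is chr7:30914923-30915172 on the minus strand, with CTGGCAC 9 bases from the start.
Mag promoter: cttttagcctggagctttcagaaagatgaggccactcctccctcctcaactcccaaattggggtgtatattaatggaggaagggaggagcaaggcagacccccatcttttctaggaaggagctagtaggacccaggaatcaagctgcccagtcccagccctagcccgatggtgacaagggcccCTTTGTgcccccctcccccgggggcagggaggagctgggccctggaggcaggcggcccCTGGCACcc
The Cnp window is chr11:100574689-100574938 on the plus strand, printed up to base 100574903, with CTGGCAC 81 bases from the start.
Cnp promoter: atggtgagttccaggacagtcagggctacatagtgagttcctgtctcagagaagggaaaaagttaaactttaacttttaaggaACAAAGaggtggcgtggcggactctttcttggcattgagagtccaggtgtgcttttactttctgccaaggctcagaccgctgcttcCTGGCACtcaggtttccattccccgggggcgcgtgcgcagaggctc
The Mobp window is chr9:120149492-120149741 on the plus strand, printed up to base 120149706.
Mobp promoter: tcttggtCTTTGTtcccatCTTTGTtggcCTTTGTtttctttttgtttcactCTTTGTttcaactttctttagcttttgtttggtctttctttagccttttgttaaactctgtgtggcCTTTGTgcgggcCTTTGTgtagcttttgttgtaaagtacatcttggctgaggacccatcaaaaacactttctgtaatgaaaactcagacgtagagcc

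Genes outside the list followed it closely across classes. Among 6604 genes with at least 500 UMIs, Pearson correlations with the mean log2 level of the 9 genes were high for Nkx6-2 (0.968), Tmem88b (0.955), Tmem125 (0.940), Tnni1 (0.937), Hhip (0.933), Sytl2 (0.920), Myrf (0.917), Tspan2 (0.917) and Gpr62 (0.916). The 56 points were classes within libraries, which share mice, so no p was computed. Myrf encodes a regulator that switches on myelin genes.

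Mature oligodendrocytes of Dp(10)2Yey and WT mice had similar levels of all 9 myelin genes. Mal was at 7531, 7540.1, 6305 and 6881 CPM after TMM normalization, Cldn11 at 2824, 2571, 2568 and 2337 CPM, and Ermn at 2161, 2052, 2219 and 2266 CPM. Both Dp(10)2Yey libraries were below both WT libraries for Mal and Cldn11 and above them for Ermn, and the genotypes overlapped for the other 6 genes. Such a lack of overlap was found for 3 of the 9 genes and for 29.3% of the 8549 genes tested. edgeR's quasi-likelihood test called 0 of the 9 genes at a Benjamini-Hochberg adjusted p under 0.01 (0% of all genes were called), and 0 of the 9 had an unadjusted p under 0.05 (2.8% of all genes). DESeq2 also called 0 and had 0 at an unadjusted p under 0.05. The log2 fold changes ran from −0.19 for Mal (SE 0.15, 95% interval −0.49 to 0.10) to 0.09, with a median of −0.05 against −0.00 over all genes tested. For Mog the direction was not stable: without WT 1 its log2 fold change was −0.15 and without Dp(10)2Yey 2 it was −0.03.

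**Figure D3:**
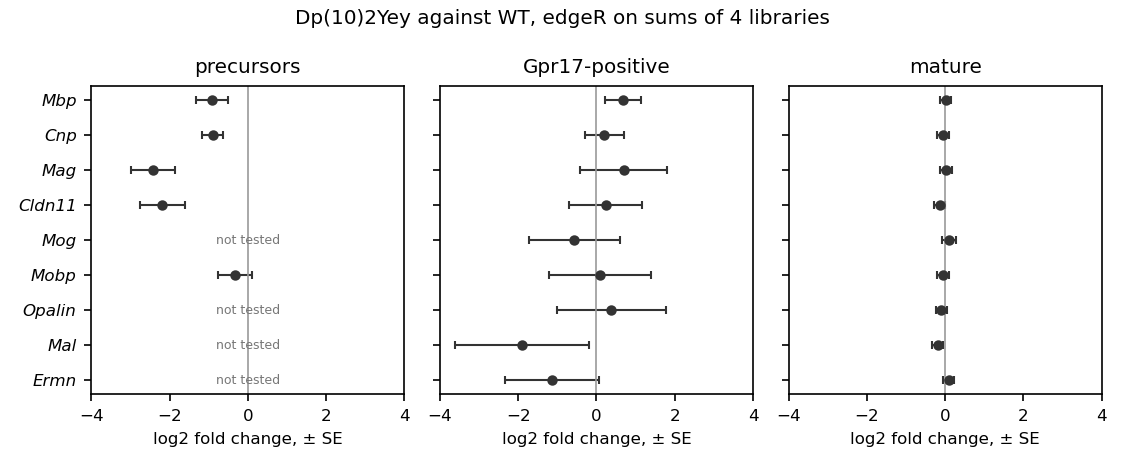
Log2 fold change of each gene, Dp(10)2Yey against WT, with its standard error, in precursors, Gpr17-positive cells and mature oligodendrocytes. Mature cells lie near 0 with small errors, and 4 genes were too sparse to test in precursors.

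In Gpr17-positive cells WT 2 and Dp(10)2Yey 2 stood above the other library of their genotype for all 9 genes, as the CPM values given for this stage show. The log2 fold changes ran from −1.90 for Mal to 0.70 for Mag, with a median of 0.20 against 0.01 over all genes tested. For none of the 9 genes were the genotypes apart, and the share of all genes that were was not counted at this stage. edgeR's quasi-likelihood test with Benjamini-Hochberg adjustment called 0 of the 9 genes (0% of 5967 genes tested), 0 of the 9 had an unadjusted p under 0.05 (2.46% of all genes), and DESeq2 gave 0 for both counts. Single libraries decided these values. Mag was at −0.15 without WT 1, 3.46 without WT 2, 1.60 without Dp(10)2Yey 1 and −2.17 without Dp(10)2Yey 2. Mal was at −2.87 without WT 1, 5.89 without WT 2, −0.92 without Dp(10)2Yey 1 and −11.52 without Dp(10)2Yey 2. Dp(10)2Yey 1 had 0 Mal UMIs and WT 1 had 1, so −11.52 and 5.89 give a direction but no exact size. The number of the 9 genes called was 2 without WT 1, 0 without WT 2, 1 without Dp(10)2Yey 1 and 7 without Dp(10)2Yey 2, where 0.197%, 0.0444%, 0.304% and 0.490% of all genes were called. With replicate number as a block, Mal was called (log2 fold change −1.92), as were 0.151% of all genes.

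With the 6 cells of the oligodendrocyte cluster taken out of the Gpr17-positive cells, 6 of the 9 genes could be tested, and Mal, Opalin and Ermn could not. Mag was at 128, 131, 189 and 933 CPM, Mbp at 820, 871, 1225 and 1934 CPM and Mobp at 12.2, 7.06, 54.0 and 199 CPM, where each WT library had just 2 Mobp UMIs. Both Dp(10)2Yey libraries were above both WT libraries for these genes and for Cldn11, with Dp(10)2Yey 2 far above the rest for Mag and Mobp. The share of all genes without overlap was not counted in these cells, and was 29.3% in mature cells. The log2 fold changes of the 6 genes ran from −0.35 for Mog to 3.81 for Mobp, with Mag at 2.15, Cldn11 at 1.68 and Mbp at 0.91, and the median was 1.29. By edgeR's quasi-likelihood test 0 of the 6 were called (lowest adjusted p 0.0109, for Mobp) and 4 had an unadjusted p under 0.05, against 0.122% and 4.65% of 5718 genes, and DESeq2 was not run on these cells. This comparison was chosen after the values were seen, and was not repeated without single libraries.

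Precursors of WT mice had higher Mag and Cldn11 on average, with WT 2 alone standing high. Mag was at 43.5, 486, 57.9 and 61.4 CPM after TMM normalization, Cldn11 at 32.6, 425, 80.2 and 47.8 CPM, and Mbp at 326, 1311, 633 and 327 CPM. WT 2 was several times any other library for Mag and Cldn11, while WT 1 lay at or below the Dp(10)2Yey libraries, so the genotypes overlapped. In WT 2, 2 cells without Pdgfra UMIs that finer clustering placed with differentiating cells held 77 and 34 of its 119 Mag UMIs and 60 and 34 of its 104 Cldn11 UMIs. edgeR's quasi-likelihood test called 0 of the 5 genes that could be tested (0% of 5385 genes), while Mog, Opalin, Mal and Ermn had too few UMIs. Of the 5, 4 had an unadjusted p under 0.05 in edgeR's test (3.9% of all genes). DESeq2 called 0 and had 1 at an unadjusted p under 0.05, and its share of all genes is not given here. The log2 fold change was −2.43 for Mag (SE 0.56, Benjamini-Hochberg adjusted p 0.633), −2.18 for Cldn11 (SE 0.57, adjusted p 0.816), −0.89 for Cnp and −0.91 for Mbp, and the median of the 5 was −0.91 against 0.00 over all genes tested. Without WT 2 they became 0.46, 0.92, −0.25 and 0.54, and Mobp went from −0.33 to 0.96. Without WT 1, Mbp was at −1.47 and Mobp at −0.68. The number of the 9 genes called was 4 without WT 1, 0 without WT 2, 5 without Dp(10)2Yey 1 and 1 without Dp(10)2Yey 2, where 0.329%, 0.0342%, 0.479% and 0.0683% of all genes were called.

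Other genes of the lineage were compared in the same sums, from lists of 15 precursor, 15 differentiating and 31 oligodendrocyte genes. edgeR's quasi-likelihood test with Benjamini-Hochberg adjustment called 0 genes of any list in any stage, as did DESeq2. At an unadjusted p under 0.05 there were 0 of 15, 1 of 11 and 6 of 18 genes tested of the 3 lists in precursors (3.9% of all genes). In Gpr17-positive cells there were 0 of 15, 1 of 13 and 1 of 26 (2.46% of all genes), and in mature cells 0 of 7, 0 of 10 and 3 of 30 (2.8% of all genes). In precursors the log2 fold change was −1.90 for Nfasc, −1.96 for Enpp6, −0.53 for Tcf7l2, 0.30 for Serpine2 and 0.25 for C1ql1. Nfasc and Enpp6 thus had the direction of Mag and Cldn11, and without WT 2 they were at −0.04 and −0.06. Enpp6 was at −3.15 without Dp(10)2Yey 1 and −1.16 without Dp(10)2Yey 2.

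In Gpr17-positive cells the genes with the smallest p in each list were Pcdh15 (−0.26), Vcan (−0.19), Lims2 (−0.59), Tcf7l2 (0.67), Omg (−0.61) and Nfasc (0.73, and −0.23 without Dp(10)2Yey 2). In mature cells S100b was at 294, 235, 619 and 348 CPM and Klk6 at 23.9, 11.3, 80.8 and 21.5 CPM, again TMM-normalized. Both Dp(10)2Yey libraries were above both WT libraries for S100b, while Klk6 overlapped. The log2 fold change of S100b was 0.89, with a Benjamini-Hochberg adjusted p of 0.801 by edgeR's quasi-likelihood test, and that of Klk6 was 1.71. Unlike the 9 genes, S100b lies in the duplicated segment. Without Dp(10)2Yey 1 S100b was at 0.42 and Klk6 at 0.52, and Klk6 was at 1.04 without WT 2. Matn4 (0.27), Ptprz1 (0.31, and −0.13 without WT 2), Bcas1 (0.25) and Tcf7l2 (0.37) were the others in mature cells. None of them reached the threshold that the 9 genes also missed.

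Outside the lineage the 9 genes left 10803 of their 164023 UMIs, or 5.27%, 6.35%, 9.35% and 5.25% per library. Dp(10)2Yey 1 had the largest share. Without cells of at least 10 such UMIs the shares were 3.57%, 1.88%, 2.89% and 2.98%. That filter acts on the UMIs being compared, so it lowers the shares by construction. Without cells over 20% mitochondrial UMIs the shares were close (3.78%, 4.42%, 4.62% and 4.45%). Neurons led by Nrgn carried the highest summed level, 3816 ± 2557 CPM (mean ± SD, n = 4 libraries), followed by border macrophages (777 ± 641 CPM), astrocytes (763 ± 306 CPM), endothelial cells (681 ± 54.2 CPM) and an unnamed cluster led by Tyrobp (583 ± 231 CPM). Ependymal cells (569 ± 245 CPM), choroid plexus cells (480.0 ± 529 CPM) and neurons led by Reln (357 ± 99.1 CPM) came next. Lowest were the microglia led by Hspa1b (289.5 ± 82.4 CPM), the microglia led by Nfkbiz (202 ± 34.6 CPM) and immature neurons (164 ± 74.3 CPM). Neighbours in this order differed by less than the larger SD, except neurons led by Nrgn from border macrophages and the 2 microglia clusters from each other.

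**Figure D4:**
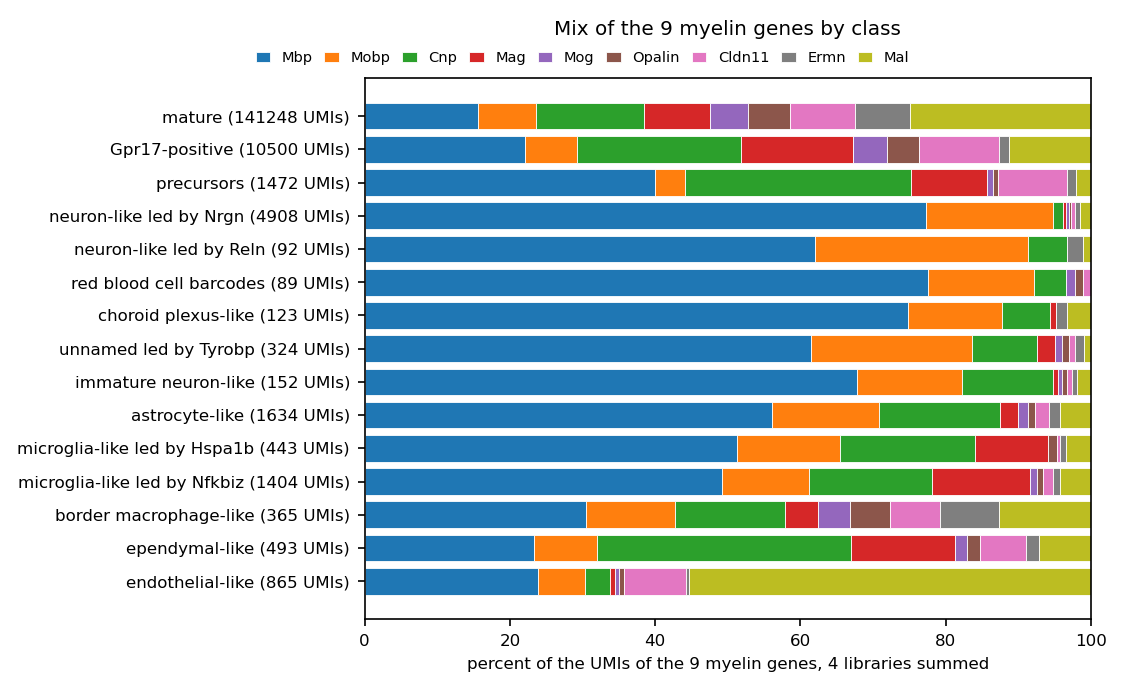
Percentage of the UMIs of the 9 genes that each gene contributed in each class, with the 4 libraries summed and UMI totals in the labels. Mbp and Mobp make up nearly all of the UMIs in neurons, while Mal stands out in endothelial cells.

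In neurons led by Nrgn the stray UMIs were almost wholly Mbp and Mobp, the genes whose mRNA is carried into processes. Mbp was at 2087, 2406, 6034 and 1358 CPM and Mobp at 494, 605, 1254 and 295 CPM. Dp(10)2Yey 1 was highest and Dp(10)2Yey 2 lowest for both genes, so the genotypes overlapped. Mbp and Mobp made up 93.9%, 91.2%, 96.9% and 97.6% of the 9-gene UMIs in these neurons, against 24.0%, 22.8%, 25.7% and 22.9% in mature oligodendrocytes. The other 7 genes had 15, 157, 69 and 15 UMIs, where the mature mix would have given 727, 5553, 6331 and 2025. The composition thus differed from that of mature cells in every library. It was not particular to these neurons: Mbp and Mobp made up 90.9%, 100% and 91.7% in red blood cell barcodes of WT 2, Dp(10)2Yey 1 and Dp(10)2Yey 2, and on average 94.2% in neurons led by Reln and 86.5% in choroid plexus cells. Mbp also stood further above Mobp than in mature cells, at 4.23, 3.98, 4.81 and 4.61 to 1 against 1.86, 1.88, 1.91 and 2.03 to 1.

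Most neurons led by Nrgn had an Mbp UMI. The share was 65.2%, 71.0%, 89.3% and 69.9% at median depths of 1282, 2090.5, 1571 and 2070.0 UMIs. In red blood cell barcodes it was 0%, 27.3%, 16.7% and 17.5% at medians of 1893, 2614, 3571 and 4477 UMIs, where 0 of 13 in WT 1 allows up to 24.7% (exact 95% Clopper-Pearson limit). Neurons were above red blood cell barcodes in every library. Thinned to 1000 UMIs per barcode the shares were 59.9%, 60.8%, 87.0% and 60.1% in neurons and 0%, 14.5%, 4.15% and 6.98% in red blood cell barcodes. Red blood cell barcodes had 0, 11, 6 and 72 UMIs of the 9 genes, with none of Mag, Mal or Ermn.

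The Mbp signal was uneven among these neurons. Cells with at least 10 UMIs of the 9 genes numbered 6, 60, 78 and 23, and they held 60.0%, 92.2%, 88.6% and 74.1% of the UMIs. Neurons with more than 20% mitochondrial UMIs had 3506, 5019, 6801 and 3336 CPM of Mbp, against 827, 1334, 4582 and 645 CPM in the others. Profiles rich in mitochondrial UMIs were thus higher in every library, and in 3 of the libraries by a wide margin. Removing called doublets changed little, to 2749, 3116, 7518 and 1514 CPM for the 9 genes, against 2749, 3301, 7518 and 1694 CPM before. Of 20 other oligodendrocyte markers, 15, 19, 18 and 16 had a UMI in these neurons, with a summed level of 1010, 1674, 1254 and 686 CPM. Klk6 was at 0 in all but Dp(10)2Yey 1. The part of these markers in the Mbp and Mobp levels was not tested.

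**Figure D5:**
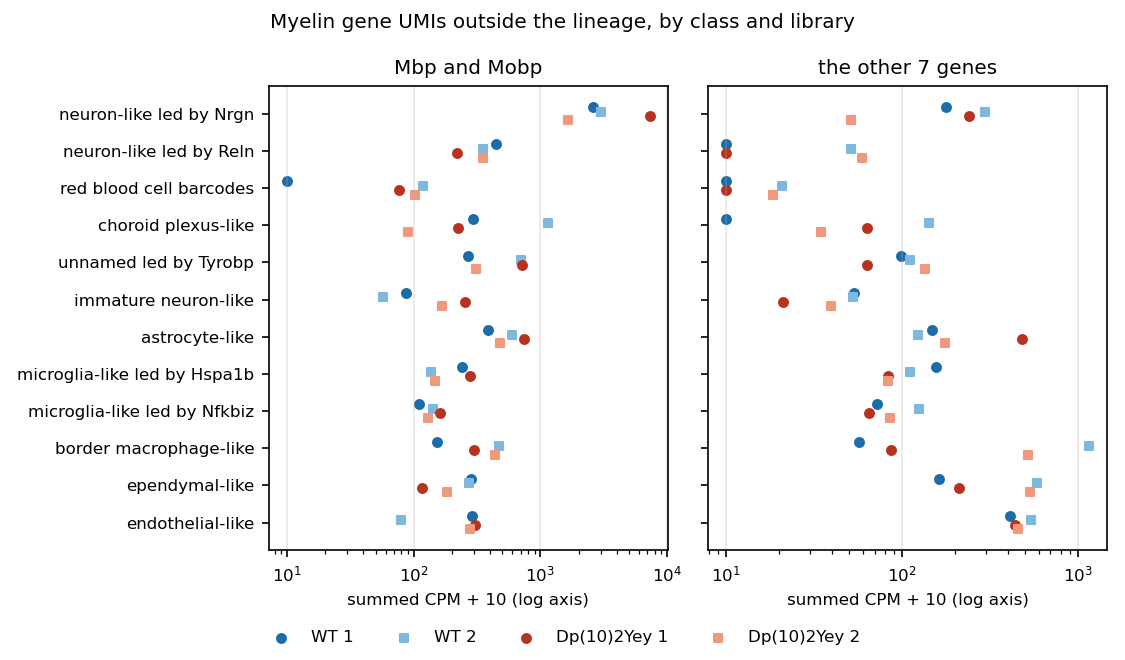
Level of Mbp and Mobp (left) and of the other 7 genes (right) in classes outside the lineage and in red blood cell barcodes, in CPM + 10 on a log axis, with 1 point per library. Levels are summed over the genes of each panel. Neurons led by Nrgn are highest for Mbp and Mobp in each library, while no class is highest for the other 7 genes in every library.

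Several classes had a mix of the 9 genes unlike that of neurons. Endothelial cells had Mal at 375, 362, 337 and 397 CPM, close together in all 4 libraries. A Mal UMI was seen in 32.3%, 46.3%, 49.1% and 44.7% of these cells at medians of 1239, 2078, 2342 and 2144 UMIs, and in 22.9%, 25.8%, 26.5% and 25.7% at 1000 UMIs. Red blood cell barcodes, deeper in every library, had 0 Mal UMIs, which allows up to 24.7%, 15.4%, 18.5% and 2.66% of them to have one. Cldn11 in the endothelial cluster was limited to a few cells: of its 1, 63, 0 and 10 UMIs, 1 in WT 1, 60 in WT 2 and 9 in Dp(10)2Yey 2 lay in fibroblast-like cells that the finer clustering separated. Ependymal cells had Cnp at 138, 206, 153 and 272 CPM, and at 1000 UMIs a Cnp UMI was seen in 14.8%, 14.6%, 11.4% and 16.9% of them, against 0%, 2.71%, 0% and 0.771% of red blood cell barcodes. Unthinned, the ependymal shares were 17.7%, 56.25%, 50% and 70.6% at medians of 1085, 6746.5, 4139.5 and 9686.5 UMIs. In microglia led by Nfkbiz, Mag was at 22.0, 37.5, 22.0 and 26.7 CPM and Cnp at 29.7, 45.9, 22.7 and 35.8 CPM, with Mbp at only 83.5, 107, 122 and 93.5 CPM.

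In other classes 1 cell set the level of a library. In border macrophages the 9 genes stood at 189, 1610.1, 368 and 942 CPM, and 1 cell held 111 of 122 UMIs (91.0%) in WT 2 and 140 of 211 (66.4%) in Dp(10)2Yey 2. With called doublets removed those 2 libraries stood at 162 and 338 CPM. The mean of border macrophages was 499.5 CPM without WT 2, and that of choroid plexus cells was 219 CPM without WT 2. In choroid plexus cells of WT 2, 1 cell held 61 of 86 UMIs, in the cluster led by Tyrobp 76 of 111, and in ependymal cells 85 of 131. In ependymal cells of Dp(10)2Yey 2, 1 cell held 157 of 268. Astrocytes stood at 512, 696, 1208 and 635 CPM. Dp(10)2Yey 1 was highest there. Astrocytes with at least 10 such UMIs numbered 4, 9, 11 and 14 and held 32.8%, 56.9%, 59.6% and 47.1% of the UMIs.

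Genotypes were compared in 10 classes outside the lineage, with 30 tests of the 9 genes that had enough UMIs. edgeR's quasi-likelihood test with Benjamini-Hochberg adjustment called 0 of these 30 (0.0227% of the 39565 tests of all genes were called). An unadjusted p under 0.05 was found in 6 (3.64% of all tests). DESeq2 called 0 of the 30 (9 of the 39565 tests of all genes). It had 4 at an unadjusted p under 0.05 (233 of the 39565 tests of all genes). The genotypes did not overlap in 8 of the 30, against 31.5% of all tests. The number called was 6 of 45 tests without WT 1, 1 of 34 without WT 2, 2 of 42 without Dp(10)2Yey 1 and 5 of 38 without Dp(10)2Yey 2. Of all tests 0.312%, 0.181%, 0.407% and 0.705% were called there.

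In astrocytes Mal was higher in Dp(10)2Yey, with 7 UMIs in WT and 62 in Dp(10)2Yey. It stood at 8.61, 10.9, 89.5 and 21.8 CPM after TMM normalization, so both Dp(10)2Yey libraries were above both WT libraries, most of all Dp(10)2Yey 1. The log2 fold change was 2.29 (SE 0.56), with a Benjamini-Hochberg adjusted p of 0.0571 by edgeR's quasi-likelihood test, where 0.0759% of 6587 genes were called. With DESeq2's size factors in edgeR the adjusted p was 0.0269. DESeq2's own test gave an unadjusted p of 0.00574 and an adjusted p of 0.9998. Without Dp(10)2Yey 1 the log2 fold change was 1.10, and without Dp(10)2Yey 2 it was 3.12. Other oligodendrocyte markers were also highest in the astrocytes of Dp(10)2Yey 1, with a summed level of 1103, 1058, 2499 and 1209 CPM over 20 markers. Apod was at 4.10, 8.12, 99.2 and 10.7 CPM and Trf at 28.7, 20.3, 103 and 10.7 CPM, and their part in the Mal difference was not tested. Of the 44 Mal UMIs of Dp(10)2Yey 1, all lay in 5 cells, and with called doublets removed too few were left to test.

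In immature neurons Mbp stood at 77.8, 49.4, 237 and 152 CPM after TMM normalization, with both Dp(10)2Yey libraries above both WT libraries. The log2 fold change was 1.66 (SE 0.42), with a Benjamini-Hochberg adjusted p of 0.183 by edgeR's quasi-likelihood test, where 0.117% of 3426 genes were called. Cells with at least 10 UMIs of the 9 genes numbered 0, 0, 2 and 1. All were in Dp(10)2Yey, so removing them was bound to lower the log2 fold change (to 0.79), and this decides nothing. Choroid plexus cells had the opposite direction for Mbp, at 347, 1357, 253 and 93.3 TMM-normalized CPM. There both Dp(10)2Yey libraries were below both WT libraries. Their log2 fold change was −2.79, with an adjusted p of 0.889, and it was −1.32 without WT 2 and −1.81 without Dp(10)2Yey 2. Ependymal cells also had less Mbp in Dp(10)2Yey (243, 266, 98.6 and 141 TMM-normalized CPM), at a log2 fold change of −0.97. Its Benjamini-Hochberg adjusted p was 0.994 by edgeR's quasi-likelihood test.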

How the data were processed

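Hippocampal cells of 2 WT and 2 Dp(10)2Yey mice were profiled with 10x 3′ libraries, 1 per mouse, prepared on 2 days with 1 mouse of each genotype per day. How the replicate numbers fall on those days is unknown. The authors deposited raw UMI counts per gene and barcode from Cell Ranger 3.0.2 on mm10, for barcodes called as cells. Library totals were 3002546 to 9612011 UMIs. The 9 genes and the other lists were chosen with earlier results of these data known.

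Barcodes needed 200 or more detected genes, and a gene had to appear in over 3 cells. Red blood cell barcodes (190, globin at least 50% of UMIs) were set aside. Scrublet in scanpy 1.11.5 called 57 doublets, which were kept. Seurat 5.3.0 clustered the cells by canonical correlation with 2000 variable genes, 50 dimensions and a resolution of 0.2, without the 9 genes. Clusters were named from marker lists. Levels are CPM of UMIs summed per class and library, with 10 CPM added before log2 ratios. Stage and stray levels are descriptions with no test.

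Genotypes were compared on these sums with edgeR 4.0.16 (TMM, filterByExpr, quasi-likelihood test, Benjamini-Hochberg adjustment over all genes, threshold 0.01) in classes with at least 10 cells per library, and with DESeq2 1.42.0, in R 4.3.3. Python 3.11.15 with numpy 2.4.6, scipy 1.17.1 and pandas 2.3.3 made the tables. Clopper-Pearson limits cover counting error only, while the interval of a fold change comes from edgeR's standard error. Alternatives changed the test, size factors, filter, block, doublets, mitochondrial UMIs, the Gpr17 threshold and the clustering, and left out each library.

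All 9 genes were named throughout. Of 3 lists of other lineage genes, those past the threshold, or else genes among the 2 of each list with the smallest p, were named, and so were genes among the 10 closest in pattern to the 9. Enpp6, Pdgfra and Gpr17 levels mark stages. Dnajc7, Galnt5 and Gm38642 were chosen after their values were seen, as were Apod and Trf in astrocytes.

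Limits: with 2 mice per genotype, a genotype difference rests on few samples, and 1 library can decide it. Empty barcodes were not analysed here, so free RNA could be gauged only from red blood cell barcodes. Precursors and Gpr17-positive cells were few, and a cell with fewer than 2 Gpr17 UMIs may still express Gpr17.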

Additional observations from a re-analysis of the deposited data

Results flagged for a closer look

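For 3 genes the Dp(10)2Yey libraries were both higher than either WT library in 1 class and both lower in another, so the genotypes were apart in opposite directions. None of these differences between classes was tested, and in no class was the gene past the threshold of edgeR's test. Outside the lineage the genotypes were apart in 8 of 30 tests of the 9 genes, against 31.5% of all tests. In mature cells they were apart for 3 of the 9 genes, against 29.3% of all genes. Mal had a log2 fold change of 2.29 in astrocytes, which was 2.48 above that of mature oligodendrocytes (−0.19) and 3.84 above that of microglia led by Nfkbiz (−1.55). Mbp had 1.66 in immature neurons, which was 4.45 above choroid plexus cells (−2.79) and 2.63 above ependymal cells (−0.97). Cnp had 0.53 in astrocytes, which was 1.10 above microglia led by Hspa1b (−0.57). Without Dp(10)2Yey 1 Mal in astrocytes was at 1.10 and Cnp at 0.19, and without Dp(10)2Yey 2 Cnp was at 0.88. Cnp in microglia led by Hspa1b was at −0.37 without Dp(10)2Yey 1 and −1.13 without Dp(10)2Yey 2. Without WT 2 Mal in microglia led by Nfkbiz was at −0.67 and Mbp in choroid plexus cells at −1.32, and Mbp in choroid plexus cells was at −1.81 without Dp(10)2Yey 2. Many UMIs behind the values in astrocytes and immature neurons lay in a few cells, as did those in choroid plexus cells of WT 2. There 2 cells held 84.9% of the UMIs of the 9 genes. The cause was not tested.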

How the results depend on the processing

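In mature oligodendrocytes 0 of the 9 genes were called by edgeR under any alternative, and by DESeq2. In precursors the count was 3 with no filter on low counts, in Gpr17-positive cells 1 and in other classes 5 of 86 tests, against 0 with the filter. With no filter, 0.106% of the 130581 tests of all genes in other classes were called. The shares of all genes in precursors and Gpr17-positive cells are not given here, so their counts cannot be set against all genes. The cause of the higher counts was not tested. The count remained 0 with DESeq2, with DESeq2's size factors in edgeR, and with called doublets or cells over 20% mitochondrial UMIs removed. At an adjusted p under 0.05 it also remained 0, but with DESeq2's size factors Mal in astrocytes passed (0.0269), and with TMM so did Mobp in Gpr17-positive cells of the precursor cluster alone (0.0109). Without 1 library the count ran from 0 to 5 in precursors, from 0 to 7 in Gpr17-positive cells and from 1 to 6 in other classes. Leaving out a library leaves 1 genotype with 1 sample, which is assumed to vary like the others.

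With replicate number as a block, 1 gene was called in Gpr17-positive cells (Mal, log2 fold change −1.92), and 0 in precursors, mature cells and other classes. Deviations from the genotype mean correlated between libraries of the same number across genes, at r of 0.295 in mature cells, 0.0601 in precursors and 0.587 in Gpr17-positive cells. These are 2 pairs only, and genes are not independent replicates.

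Some log2 fold changes reversed without 1 library, and are given as ranges over the libraries left out. In Gpr17-positive cells Mag ran from −2.17 (with −0.15 without WT 1) to 3.46, Mal from −11.52 to 5.89 and Nfasc from −0.23 to 1.31. The 2 Mal values rest on a library with 0 or 1 Mal UMIs and give no exact size. In mature cells Mog ran from −0.15 (with −0.03 without Dp(10)2Yey 2) to 0.40 and Ptprz1 from −0.13 to 0.57. In precursors Cldn11 ran from −2.76 to 0.92, Mag from −3.01 to 0.46, Mbp from −1.47 to 0.54 and Mobp from −0.68 to 0.96. The cause was not tested beyond the values per library. Over 326 alternatives for 32 such fold changes, 281 kept their direction and side of the threshold, 34 came past the threshold and 11 reversed.

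The mean percentage of the 9 genes' UMIs outside the lineage, 6.55%, was 2.83% with cells of at least 10 such UMIs removed, which lowers it by construction, and 4.32% with cells over 20% mitochondrial UMIs removed. It stayed within 1 SD with doublets removed (6.22%), at a resolution of 0.5 (6.56%) and without 1 library (5.62% to 6.99%). The median log2 ratio of mature to Gpr17-positive cells, 3.07, ran from 1.77 with cells lacking Pdgfra alone to 4.32 with the precursor cluster alone, within 1 SD of 2.16. Of 351 alternatives for single genes between stages, 14 moved by more than 1 SD, of 154 for levels by class, 8 did, and of 11 shares thinned to 500 in place of 1000 UMIs, 6 did. Thinning to 500 UMIs also kept barcodes that thinning to 1000 UMIs left out. Gpr17-positive cells of the precursor cluster alone, and other classes without cells of at least 10 UMIs of the 9 genes in the genotype test, were chosen after seeing the data.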
